A study of Mus musculus with 8 samples.

Results

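Splenic B cells of C57BL/6 mice that had spent 3 days with CpG were compared with naive B cells from the same source, over all genes. The 3 CpG libraries, named Bregs-CpG in the labels, came from isolated B cells of strain B6 kept for 3 days with CpG ODN1668, a short synthetic DNA that activates the endosomal receptor TLR9. The 3 naive libraries came from naive B cells of the same strain, for which the labels state neither a culture nor a treatment. The other 2 of the series' 8 libraries, whose CpG cultures were given LPS, PMA and ionomycin during the final 5 hours, entered the fit only to estimate the spread between libraries. No library came from cells cultured without CpG, so the effects of CpG and of 3 days in culture cannot be told apart. The labels give no age, do not say how the B cells were isolated or how pure they were, and do not say whether libraries of a group came from separate animals, so the p-values measure the spread between these libraries. In the RNA of whole cell populations, fewer cells of a type and less RNA per cell cannot be told apart either.

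CpG DNA reaches TLR9 in endosomes, and the adaptor MyD88 then activates NF-kB and MAP kinases. B cells that receive this signal leave the resting state, grow and divide, and a part of them can secrete the cytokine IL-10, for which they are called regulatory B cells. A growing lymphocyte takes up amino acids through transporters at its surface and feeds glutamine, glutamate and aspartate into proteins, nucleotides and the mitochondrial tricarboxylic acid (TCA) cycle. A resting B cell in the spleen instead carries receptors that hold it in the follicle or marginal zone and that respond to chemokines, sphingosine 1-phosphate and complement.

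Of 37583 gene identifiers in the files, 13964 had enough counts to be tested. At an adjusted p below 0.05, edgeR's quasi-likelihood test called 6347 of them (45.5%), of which 3286 were higher with CpG (23.5% of the tested genes) and 3061 lower (21.9%). Changes of at least 2-fold numbered 1588 upward and 1505 downward, and changes of at least 8-fold 352 upward and 491 downward. The median log2 fold change of all tested genes was 0.011. The groups did not overlap for 7821 genes, 56.0% of those tested. Genes named by the rule given at the end had to have groups that did not overlap, and other named genes were chosen after their values were seen. A lack of overlap in a named gene therefore describes it and is no support. With so many genes called, each count of a list below has to be read against these percentages. The counts are over members of a list with enough reads to be tested. A gene that reached that level only through the group where it is high had to differ. A count over a list with few tested members, or with many members near 0 counts in one group, is therefore a description only. Levels are CPM scaled by TMM, the usual correction for library composition, listed in the order of replicates 1 to 3 in each group, and changes are log2 fold changes of CpG against naive ± SE, with 3 libraries a group.

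Library totals over genes were 15804311 to 20069272 counts, so that 1 count was worth 0.0501 to 0.0645 CPM in these 6 libraries. Naive replicate 1 and CpG replicate 1 carried another library prefix than the other 4 and had 37.5% and 47.1% of reads aligned to several places, against 14.7% to 19.9%. Naive replicate 1 also stood apart in genes of other spleen cells, which bears on many of the largest falls and is given beside them. Of 8 B cell identity genes, none was called, and their summed level was 11267 ± 340 CPM in the naive libraries and 10813 ± 2511 CPM in the CpG libraries (SD, n = 3 each). By replicate the sums were 10883, 11529 and 11390 CPM in naive libraries and 13712, 9317 and 9409 CPM with CpG. CpG replicate 1 was thus the highest library, and CpG replicates 2 and 3 were below every naive one. In the libraries of the commoner prefix 2 of the 8 were called lower. Tlr9, the receptor for CpG, was at 146, 188 and 151 CPM in naive cells and 118, 152 and 197 CPM with CpG, with overlapping groups (-0.06 ± 0.19, adjusted p = 0.828).

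Among the steepest rises were genes better known from epithelia than from lymphocytes. The 15 steepest rises were taken from called genes that averaged 8 CPM or more over the libraries and whose groups did not overlap, and they include Pcbd1, Cdhr2, Cdh16 and Cldn2, known from kidney, liver or gut epithelium. Pcbd1, which encodes a pterin dehydratase that recycles the cofactor of aromatic amino acid hydroxylases, went from 0.156, 0.0501 and 0 CPM to 26.1, 22.6 and 21 CPM (8.27 ± 0.41), or 9.48 without naive replicate 1. The CpG libraries of Pcbd1 lay close together, and only 4 counts in all came from the naive group.

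The other epithelial genes named here encode adhesion proteins. Cdhr2, a cadherin of brush border microvilli, rose from 0.104, 0.301 and 0.0522 CPM to 106, 76.6 and 73.7 CPM (9.05 ± 0.34; 9.97 without naive replicate 2). Cdh16, a cadherin of kidney tubules, rose from 0.0521, 0.0501 and 0.104 CPM to 19.3, 28.3 and 11.2 CPM (8.02 ± 0.61). Cdh17, the liver and intestine cadherin, was already present in naive cells at 26.0, 26.0 and 17.9 CPM and rose to 185, 224 and 278 CPM (3.30 ± 0.19). None of these groups overlapped, and the 3 genes differed in which CpG library was highest. Cldn2, a pore-forming claudin of tight junctions, rose from 0.156, 0.0501 and 0.0522 CPM to 62.3, 63.0 and 136 CPM (9.88 ± 0.58; 10.54 without naive replicate 1), with CpG replicate 3 above the other two. Of 31 listed claudins 4 could be tested, of which 3 were called higher and none lower, and of 69 listed cadherins and protocadherins 10 could be tested, with 5 higher and 2 lower. Cdh1, which encodes E-cadherin of epithelia and some leukocytes, went the other way: it had 115 counts over the naive group and 0 with CpG, at least 34.5-fold lower.

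The remaining large rises were of several kinds. Avpr1a, a vasopressin receptor, had 0 counts in all naive libraries and 36.8, 37.4 and 51.8 CPM with CpG, at least 822-fold higher. Il6 rose from 0.156, 0 and 0.0522 CPM to 37.8, 25.3 and 53.0 CPM (9.0 ± 0.55; 10.21 without naive replicate 1), and Tnip3, which encodes a binding partner of the NF-kB inhibitor A20, from 0.260, 0.0501 and 0.157 CPM to 70.9, 75.2 and 99.7 CPM (8.99 ± 0.30). Neither gene's groups overlapped. The transcription factor genes Atf3 (1.09, 0.501 and 0.522 CPM to 123, 178 and 191 CPM) and Cebpd (1.67, 0.551 and 0.522 CPM to 201, 183 and 221 CPM) rose by 7.85 ± 0.32 and 7.78 ± 0.32 (8.52 without naive replicate 1 for Cebpd). Cebpd overlaps an exon of Spidr on the opposite strand. Since the counting ignored strand, reads on the bases that such a pair shares could not be assigned by strand. The same limit holds, among genes named below, for Ccr9, Cd37, Csf1r, Cxcr5, Dgka, Gpr55, Irf1, Itpkb, Kdm7a, Slc7a7, Sorl1, Tomm70a, Trim7 and Zfas1, which also share exon bases with a gene on the opposite strand. Plcd3, a phospholipase C, rose from 5.99, 2.86 and 3.50 CPM to 124, 95.3 and 96.5 CPM (4.68 ± 0.26), with no overlap. Shisa3 rose by 8.78 ± 0.50, and its exons overlap Atp8a1 on the opposite strand.

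**Figure D1:**
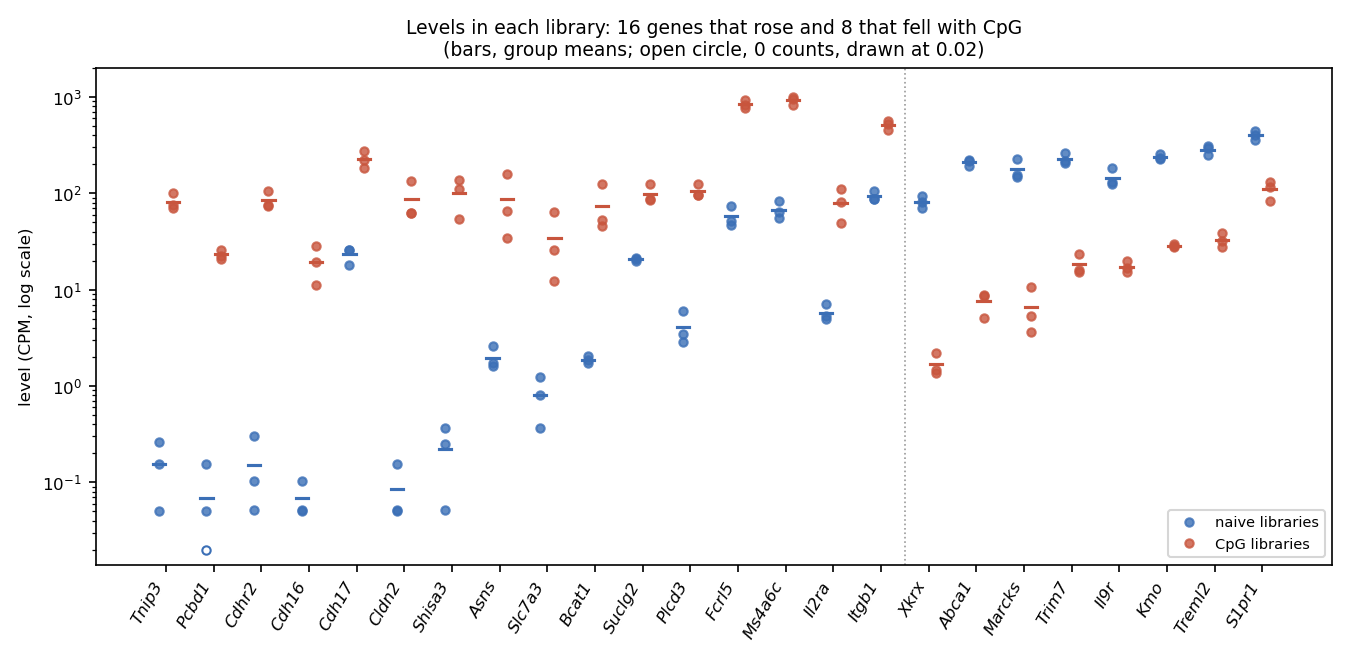
Levels of 16 genes that rose and 8 that fell, in CPM on a log scale (y axis), for each of the 3 naive (blue) and 3 CpG (red) libraries, with bars at the group means and an open circle for a library with 0 counts. For every gene plotted the libraries of one group lie apart from those of the other, from Pcbd1 at or below 0.156 CPM in naive cells to S1pr1 at 359 to 445 CPM. This separation was required by the naming rule or seen before a gene was chosen, so it is no support.

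Genes of amino acid supply were called higher more often than lower. Of 19 genes tested for glutamine, glutamate and aspartate metabolism, 10 were called higher and 0 lower (median log2 fold change 0.69), and of 23 amino acid transporters 9 were higher and 5 lower (median 0.30). Branched-chain amino acid breakdown had 9 of 15 higher and 2 lower (median 0.42). The promoters of Asns and Pycr1 are shown because each holds TGATGNAA, the letters of the site bound by the stress-response factor ATF4 with C/EBP proteins, where N is any base. Each sequence is the 250 bases before the start site from RefSeq on GRCm38.p6, read 5′ to 3′ on the gene's strand, with the motif in capitals and its place counted back from -1 next to the start. The promoters are those of Asns (ENSMUSG00000029752) at chr6:7693210-7693459 on the minus strand with the motif at -23 to -16, and Pycr1 (ENSMUSG00000025140) at chr11:120643749-120643998 on the minus strand with the motif at -103 to -96.
Asns: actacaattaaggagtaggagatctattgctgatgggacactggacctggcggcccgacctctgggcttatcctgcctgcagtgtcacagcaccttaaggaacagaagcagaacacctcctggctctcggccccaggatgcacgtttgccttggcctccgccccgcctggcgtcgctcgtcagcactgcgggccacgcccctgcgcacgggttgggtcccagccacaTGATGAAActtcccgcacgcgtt
Pycr1: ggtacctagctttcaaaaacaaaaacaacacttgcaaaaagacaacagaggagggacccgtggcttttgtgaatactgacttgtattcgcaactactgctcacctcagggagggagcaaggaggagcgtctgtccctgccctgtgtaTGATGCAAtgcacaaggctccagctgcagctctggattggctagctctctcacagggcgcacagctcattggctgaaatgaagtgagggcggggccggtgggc
Of the 19 genes called higher in the transporter list and the glutamine, glutamate and aspartate list, 15 had a window, and 5 of them (Slc1a4, Slc7a7, Got1, Asns and Pycr1) held TGATGNAA on either strand. A window ran from 250 bases before to 50 after the start, and 27025 genes had one. The motif was in 4.51% of all genes with a window and 2.92% of the tested ones. A match says that these letters are present and not that a factor binds there. The authors' build was mm9, so these coordinates apply to the RefSeq table and not to the counting. Slc7a7, an exchanger of cationic and neutral amino acids, had overlapping groups, rose by 1.05 ± 0.31 and lost its call without naive replicate 2 (adjusted p = 0.0759), naive replicate 3 (0.07), CpG replicate 1 (0.0504) or CpG replicate 3 (0.0782).

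Asns, which encodes asparagine synthetase, rose from 2.60, 1.60 and 1.72 CPM to 65.2, 34.4 and 160 CPM (5.45 ± 0.59, adjusted p = 8.49e-05). The cationic amino acid transporter gene Slc7a3 rose from 1.25, 0.801 and 0.365 CPM to 26.1, 12.3 and 64.7 CPM (5.40 ± 0.73), and Slc1a4, a transporter of alanine, serine and cysteine, from 0.990, 1.5 and 1.41 CPM to 23.7, 12.4 and 58.9 CPM (4.60 ± 0.58). In all 3 genes CpG replicate 3 was highest and CpG replicate 2 lowest. Every CpG library was above every naive one, which the choice of these genes required. The same order held for Slc7a5, the large neutral amino acid transporter, at 170, 120 and 372 CPM with CpG against 32.9, 34.1 and 32.2 CPM (2.74 ± 0.39). It also held for Gpt2, a mitochondrial alanine transaminase, at 28.5, 22 and 67.3 CPM against 2.14, 4.16 and 2.45 CPM (3.75 ± 0.47), and for Pycr1, which makes proline, at 13.2, 8.71 and 33 CPM against 2.50, 1.25 and 1.25 CPM (3.45 ± 0.57). Without CpG replicate 3 these changes were 4.65 for Asns, 4.56 for Slc7a3, 3.78 for Slc1a4, 2.13 for Slc7a5, 3.11 for Gpt2 and 2.71 for Pycr1, and each was still called.

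Other genes of the same lists rose with less spread across the CpG libraries, apart from Bcat1. Got1 and Got2, the cytosolic and mitochondrial aspartate transaminases, went from 42.6, 41.5 and 41.6 CPM to 115, 103 and 118 CPM (1.42 ± 0.12) and from 39.6, 42.6 and 41.1 CPM to 83.5, 94.8 and 79.8 CPM (1.07 ± 0.11). Bcat1, the cytosolic branched-chain transaminase, again with CpG replicate 3 highest, rose from 2.03, 1.85 and 1.72 CPM to 53.2, 46.4 and 124 CPM (5.31 ± 0.44). Auh, an enzyme of leucine breakdown, rose from 34.1, 33.2 and 33.6 CPM to 144, 112 and 129 CPM (1.93 ± 0.12). The naive libraries of these 4 genes were nearly equal, and no groups overlapped. Slc36a4, a proline and tryptophan transporter, rose by 1.60 ± 0.16, while Slc36a1 and Slc43a2 fell by 0.87 and 0.86 on the log2 scale, with SEs of 0.15 and 0.20. Slc3a2, the heavy chain that carries Slc7a5 to the surface, was at 137, 124 and 140 CPM in naive cells and 143, 98.7 and 246 CPM with CpG, with overlapping groups (0.28 ± 0.29, adjusted p = 0.461).

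In the TCA cycle list, 8 of 18 genes were higher and 1 lower (median 0.24). Suclg2, the subunit of succinyl-CoA ligase that uses GTP, rose from 20.9, 21.5 and 20.0 CPM to 85.1, 87.6 and 124 CPM (2.25 ± 0.16). Idh2, the mitochondrial NADP-dependent isocitrate dehydrogenase, rose from 39.2, 27.4 and 31.4 CPM to 91.8, 101 and 91.7 CPM (1.54 ± 0.15). Both stood apart from Idh3a, which rose by 0.74 ± 0.11, and Cs, citrate synthase, which rose by 0.69 ± 0.12. Mitochondrial protein import had 12 of 23 genes higher and 0 lower (median 0.44), among them Timm17a, a channel subunit of the inner membrane, at 32.6, 34.0 and 33.1 CPM against 15.2, 16.1 and 16.5 CPM (1.06 ± 0.10). The outer membrane receptor gene Tomm70a rose by 0.91 ± 0.14. Of 40 mitochondrial carriers, 17 were higher and 3 lower (median 0.28). Slc25a37, the mitochondrial iron importer, fell from 280, 290 and 292 CPM to 108, 87.2 and 72.6 CPM (-1.69 ± 0.15). Flvcr1, a haem exporter, rose by 1.39 ± 0.19.

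Pyruvate handling and fatty acid oxidation were mixed. Pyruvate entry had 3 of 12 genes higher and 2 lower, with Pdk3, a kinase that inhibits pyruvate dehydrogenase, up by 1.11 ± 0.14 and Pdp1, the opposing phosphatase, down from 14.2, 17.5 and 18.6 CPM to 5.10, 7.64 and 8.13 CPM (-1.26 ± 0.21). The groups of Pdp1 did not overlap. Fatty acid oxidation had 7 of 22 higher and 3 lower, the 7 becoming 3, 4 and 3 without naive replicate 2, naive replicate 3 and CpG replicate 3. Cpt1a, the carnitine transferase that admits long-chain fatty acids to mitochondria, fell from 132, 174 and 154 CPM to 65.4, 64.3 and 78.6 CPM (-1.14 ± 0.19). Acadl, a dehydrogenase of the pathway inside, rose by 0.89 ± 0.17. The polyamine list had 6 of 14 higher and 2 lower: Odc1, its entry enzyme, rose by 0.80 ± 0.15, Srm, spermidine synthase, by 0.92 ± 0.11, and Sat1, which starts polyamine breakdown, fell from 194, 158 and 184 CPM to 99.8, 120 and 120 CPM (-0.66 ± 0.12).

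Lipid signalling lists leaned downward. Of 30 phosphoinositide kinases and phosphatases 15 were lower and 5 higher (median -0.49), the 5 becoming 3 without any one of the naive replicates or with no filter on low counts. Pik3r5, the regulatory subunit of the PI3-kinase that acts behind G protein-coupled receptors, fell from 55.9, 49.6 and 50.2 CPM to 16.5, 8.76 and 10.1 CPM (-2.14 ± 0.22). Itpkb, an inositol trisphosphate kinase, fell from 198, 218 and 214 CPM to 94.3, 102 and 103 CPM (-1.08 ± 0.09). Pik3ap1 (BCAP), the adaptor that joins PI3-kinase to the B cell receptor and Toll-like receptors, went the other way, from 391, 463 and 435 CPM to 782, 945 and 983 CPM (1.07 ± 0.13). Diacylglycerol kinases had 6 of 8 lower and 0 higher, the 6 becoming 3, 2 and 2 without naive replicate 1, naive replicate 2 and CpG replicate 3. Dgka fell from 332, 323 and 370 CPM to 184, 131 and 105 CPM (-1.29 ± 0.19).

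Eicosanoid genes had 8 of 15 lower and 2 higher (median -1.17), but the 8 became 4 without naive replicate 1 and 5 without naive replicate 3, and also 5 in the libraries of the commoner prefix, in a fit of the CpG and naive libraries alone, or where a mean of 1 CPM was required. In 3 of the 8, naive replicate 1 was at least 3 times the higher of the other naive libraries, as in Ptgs1, cyclooxygenase 1, at 32.8, 7.01 and 3.24 CPM against 0.0645, 0.107 and 0.164 CPM (-6.89 ± 1.03; -5.42 without naive replicate 1). Markers of red pulp macrophages showed the same order among the naive libraries, as given below. Their part in this count was not tested. Ephx1, an epoxide hydrolase, did not follow that order, at 156, 175 and 170 CPM against 90.9, 92.9 and 81.5 CPM (-0.92 ± 0.13). Sphingolipid genes had 5 of 22 higher (3 without naive replicate 3) and 7 lower (11 in the libraries of the commoner prefix). The ceramidase genes Asah1 and Asah2 rose by 0.87 ± 0.14 and 1.17 ± 0.17, while Cers4, a ceramide synthase, fell from 90.3, 84.9 and 93.2 CPM to 41.1, 36.0 and 29.9 CPM (-1.33 ± 0.13). Among the 25 genes of sialic acid and N-glycan capping, 8 were higher and 5 lower (3 without CpG replicate 3, and 3 where a mean of 1 CPM was required). Fut8, which adds the core fucose, rose from 24.1, 18.8 and 19.1 CPM to 62.3, 64.8 and 81.8 CPM (1.75 ± 0.16), and St6gal1, which makes the α2,6-sialic acid ligand of CD22, fell from 446, 488 and 439 CPM to 165, 227 and 183 CPM (-1.26 ± 0.14). St6gal1 shares exon bases with BC106179 on the opposite strand.

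**Figure D2:**
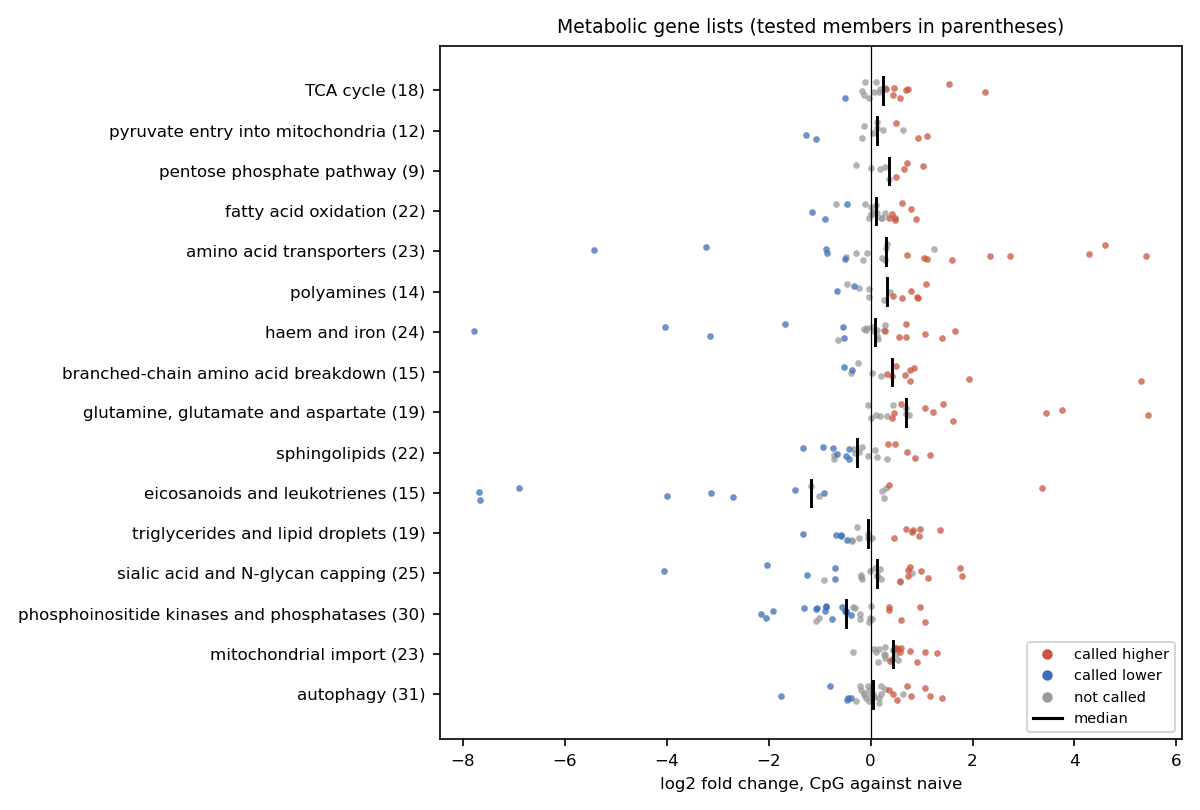
Log2 fold changes of CpG against naive (x axis) for every tested member of 16 metabolic lists (rows, tested members in parentheses), red for genes called higher, blue for lower and grey for not called, with a black bar at each median. No gene of the glutamine, glutamate and aspartate list or of the mitochondrial import list was called lower, and the eicosanoid list has the lowest median, -1.17.

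Some large falls were in genes whose level in naive replicate 1 was less than 1.5 times the higher of the other naive libraries. They were picked after their values were seen, for that reason. Xkrx, a membrane protein of the XK family, went from 70.9, 93.2 and 82.1 CPM to 1.48, 2.19 and 1.36 CPM (-5.60 ± 0.21, adjusted p = 4.42e-07). Abca1, the exporter that loads cholesterol onto apolipoproteins, fell from 216, 223 and 191 CPM to 5.10, 8.87 and 8.68 CPM (-4.79 ± 0.20). In both genes the CpG libraries were low throughout and the naive ones level. The related exporter gene Abcg1 fell by 1.77 on the log2 scale (SE 0.17), and of 30 ABC transporters 13 were lower and 6 higher. Marcks, a protein kinase C substrate at the membrane, fell from 229, 156 and 149 CPM to 3.68, 5.29 and 10.7 CPM (-4.75 ± 0.36). Plaur, the urokinase receptor, fell from 99.0, 86.8 and 90.9 CPM to 2.90, 5.88 and 4.80 CPM (-4.34 ± 0.22). Pglyrp1, a peptidoglycan recognition protein, fell from 30.4, 28.2 and 29.6 CPM to 1.23, 1.12 and 1.09 CPM (-4.68 ± 0.19). All 3 were low in each CpG library. Kmo, the kynurenine hydroxylase of tryptophan breakdown, fell from 225, 256 and 235 CPM to 27.7, 30.1 and 28.3 CPM (-3.05 ± 0.10, adjusted p = 2.64e-07). Cyp27a1, the sterol 27-hydroxylase, fell by 4.08 on the log2 scale (SE 0.35).

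Surface protein families moved in both directions. The Ms4a family, which holds the gene of CD20, had 5 of 9 tested members higher and 1 lower (median 1.39). Ms4a6c rose from 83.7, 63.4 and 55.7 CPM to 1005, 822 and 963 CPM (3.78 ± 0.18), and Ms4a6b from 53.1, 33 and 37.3 CPM to 702, 361 and 768 CPM (3.89 ± 0.32). They are close paralogs, and how reads were split between them is uncertain. Ms4a1, which encodes CD20 itself, was not called, at 1816, 2129 and 2157 CPM against 2485, 1480 and 2019 CPM (-0.03 ± 0.21, adjusted p = 0.924). Fc receptors and their relatives had 4 of 15 higher and 9 lower, 3 of the 9 with naive replicate 1 at least 3 times the other naive libraries. Fcrl5, an Fc receptor-like inhibitor of B cells, rose from 73.9, 51.7 and 47.2 CPM to 832, 771 and 929 CPM (3.87 ± 0.19), and Fcgr2b, the inhibitory IgG receptor, from 189, 187 and 196 CPM to 720, 591 and 474 CPM (1.64 ± 0.15). Fcgrt, the neonatal Fc receptor, fell from 74.0, 47.7 and 53.6 CPM to 12.8, 8.39 and 5.29 CPM (-2.73 ± 0.30). The groups of these Fc receptor genes did not overlap.

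Cytokine receptors leaned downward, with 19 of 42 lower and 10 higher (median -0.54), and naive replicate 1 stood at least 3 times above the other naive libraries in 1 of the 19. Il2ra, the high-affinity IL-2 receptor chain, rose from 5.37, 4.91 and 7.05 CPM to 49.1, 111 and 80.6 CPM (3.80 ± 0.29). Il2rb, its signalling partner that is also a natural killer and T cell gene, went the other way, from 19.8, 8.06 and 23.4 CPM to 1.68, 2.03 and 2.02 CPM (-3.16 ± 0.38). Il7r rose from 2.24, 2.25 and 7.83 CPM to 25.3, 32.9 and 82.6 CPM (3.51 ± 0.58), with values of 4.37 without naive replicate 3 and 2.82 without CpG replicate 3. Il9r, the IL-9 receptor, fell from 183, 125 and 130 CPM to 15.2, 19.9 and 16.9 CPM (-3.07 ± 0.18), and Il6ra from 46.3, 34.5 and 33.5 CPM to 3.81, 5.66 and 3.98 CPM (-3.08 ± 0.24), while Il6 itself was among the largest rises. Il4ra fell from 402, 495 and 486 CPM to 218, 220 and 217 CPM (-1.08 ± 0.13). None of these groups overlapped. Of 23 TNF receptor family genes, 6 were higher (3 without naive replicate 2 and 3 without naive replicate 3) and 7 lower, and Tnfrsf19 had the largest rise, to 21.2, 24.7 and 80.4 CPM from 3.02, 4.56 and 4.85 CPM (3.34 ± 0.52; 2.47 without CpG replicate 3).

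Chemokine receptors and lysophospholipid receptors had more members lower than higher. Of 18 chemokine receptors 11 were lower and 3 higher (median -1.84), with naive replicate 1 at least 3 times the other naive libraries in 2 of the 11. The list also holds receptors known from other cells, such as Ccr3, known from eosinophils. Ccr3 had 1242 counts over the naive group and 3 with CpG, a ratio of 373 (95% exact interval 127 to 1811). It is 1 of those 2 genes, at 47.5, 11.8 and 4.96 CPM in naive replicates 1 to 3. Red pulp macrophage markers showed the same order among the naive libraries, so the cell source of its reads is not known. Of 9 receptors for sphingosine and lysophosphatidate 7 were lower and 1 higher (median -0.97), none of the 7 with such a ratio. Cxcr5, the follicle-homing receptor, fell from 440, 658 and 552 CPM to 204, 239 and 213 CPM (-1.33 ± 0.19). Ccr6 fell from 109, 101 and 84.9 CPM to 18.2, 50.4 and 17 CPM (-1.78 ± 0.36; -2.47 without CpG replicate 2). Ccr7, which draws cells to the T zone, was at 201, 272 and 287 CPM against 251, 249 and 354 CPM, with overlapping groups (0.17 ± 0.24, adjusted p = 0.597). S1pr1, the egress receptor, fell from 445, 402 and 359 CPM to 132, 116 and 82.7 CPM (-1.87 ± 0.17), and S1pr4 fell by 0.97 on the log2 scale (SE 0.15). The lysophosphatidate receptor gene Lpar2 fell from 46.7, 61.8 and 56.5 CPM to 17.8, 21.4 and 17.8 CPM (-1.53 ± 0.14). The only higher member, Lpar4, rested on 23 counts over the CpG group against 0, at least 8.51-fold higher. It lost its call without any one naive replicate (adjusted p = 0.0571 to 0.0606) and without CpG replicate 3 (0.0733). The call was also lost in the libraries of the commoner prefix. Among orphan G protein-coupled receptors 7 of 32 were higher and 13 lower, with Gpr55 rising from 5.94, 4.41 and 3.65 CPM to 32, 35.6 and 58.1 CPM (3.17 ± 0.27).

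Integrin chains moved in both directions. Itgb1, the β1 chain, rose from 106, 87.1 and 87.0 CPM to 455, 530 and 559 CPM (2.46 ± 0.14), while Itgb7, the β7 chain of gut homing, fell from 303, 274 and 306 CPM to 69.7, 70.1 and 31.0 CPM (-2.37 ± 0.29). Itga4, the α4 chain that pairs with both, fell from 404, 459 and 416 CPM to 124, 98.0 and 133 CPM (-1.85 ± 0.13), and its exons overlap Cerkl on the opposite strand. Of 23 integrins 5 were higher (3 without naive replicate 3) and 9 lower, 3 of the 9 with naive replicate 1 at least 3 times the other naive libraries. Cd55, the complement decay factor, fell from 523, 557 and 555 CPM to 66.5, 66.2 and 41.4 CPM (-3.23 ± 0.19), with an exon overlap on the opposite strand with Gm16083. Sorl1, a sorting receptor, fell from 714, 859 and 855 CPM to 95.8, 118 and 98.6 CPM (-2.96 ± 0.15). Both of these genes also showed no overlap between the groups and were picked after their values were seen. Potassium channels had 7 of 29 higher and 14 lower (8 where a mean of 1 CPM was required). Kcna3, a voltage-gated channel of lymphocytes, rose from 26.2, 27.2 and 17.9 CPM to 70.2, 67.9 and 76.9 CPM (1.59 ± 0.20).

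In some receptor families most tested members were lower. Of 68 listed C-type lectin-like receptors 39 could be tested, of which 30 were lower (20 without naive replicate 1) and 4 higher. Their summed level did not fall with that count, at 1199 ± 102 CPM in naive cells and 1293 ± 148 CPM with CpG (SD, n = 3 each). Of 26 paired immunoglobulin-like receptors 17 could be tested, with 16 lower and 0 higher, and of 9 Siglecs 7, with 6 lower and 0 higher. The lectin family includes the Klr genes of natural killer cells, and 12 of its members had 0 counts in one group, with a median log2 fold change of -5.58 as fitted and -3.97 with those 12 at the bound of 3 counts. Klrk1 (NKG2D) had 495 counts over the naive group and 0 with CpG, at least 149-fold lower. Cd69, an early activation antigen in the same family, rose from 69.1, 97.8 and 106 CPM to 257, 287 and 281 CPM (1.60 ± 0.16). In 8 of the 30 lectin genes and 8 of the 16 paired receptors that were lower, naive replicate 1 was at least 3 times the higher of the other naive libraries. Treml2, a B cell receptor of the paired family, did not follow this: it fell from 248, 310 and 294 CPM to 28.1, 32.3 and 38.8 CPM (-3.10 ± 0.15). Siglecg, the inhibitory Siglec of B cells, fell from 1043, 1017 and 1125 CPM to 602, 383 and 411 CPM (-1.19 ± 0.17). Cd22, the other B cell Siglec, was not called, at 1945, 2126 and 1904 CPM against 2627, 2226 and 1865 CPM (0.17 ± 0.15, adjusted p = 0.379).

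Transport across membranes was reshuffled gene by gene. Of 230 solute carriers tested 75 were higher and 66 lower, with a median of 0.04. Slc31a2, a copper transporter of endosomes, rose from 15.1, 13.4 and 11.6 CPM to 109, 81.1 and 90.9 CPM (2.81 ± 0.16). Slc43a3, a purine base transporter, rose from 15.6, 13.2 and 9.66 CPM to 88.1, 80.3 and 130 CPM (2.96 ± 0.25), and Slc16a1, a lactate carrier, from 17.7, 23.4 and 21.7 CPM to 41.5, 79.6 and 75.6 CPM (1.65 ± 0.23). These groups did not overlap. Of 20 zinc transporters 7 were higher and 4 lower. Slc39a14, an importer of zinc, iron and manganese, rose from 12.8, 12.7 and 11.5 CPM to 22.4, 27.4 and 27.8 CPM (1.07 ± 0.13). Kcnk5, a background potassium channel, fell from 52.1, 49.0 and 43.6 CPM to 17.4, 18.5 and 16.7 CPM (-1.46 ± 0.13).

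Smaller surface families held some large changes. Plxnb2, a semaphorin receptor, rose from 73.4, 50.4 and 36.1 CPM to 308, 237 and 248 CPM (2.31 ± 0.24), in a family with 6 of 23 tested genes higher and 4 lower. Ly6a (Sca-1), a GPI-anchored antigen of stem cells and activated lymphocytes, rose from 273, 208 and 190 CPM to 620, 637 and 585 CPM (1.46 ± 0.18). Both genes had every CpG library above every naive one. Of 21 tetraspanins 6 were higher and 8 lower. Cd53, a tetraspanin of leukocytes, rose from 608, 802 and 800 CPM to 1304, 1282 and 1120 CPM (0.75 ± 0.14), whereas the related Cd37 fell from 1937, 1999 and 1929 CPM to 1281, 983 and 813 CPM (-0.93 ± 0.16). Purinergic and adenosine receptors had 7 of 13 lower and 2 higher. P2rx4, an ATP-gated channel, fell from 75.2, 52.0 and 59.8 CPM to 29.0, 28.0 and 30.8 CPM (-1.09 ± 0.14), and its groups did not overlap.

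**Figure D3:**
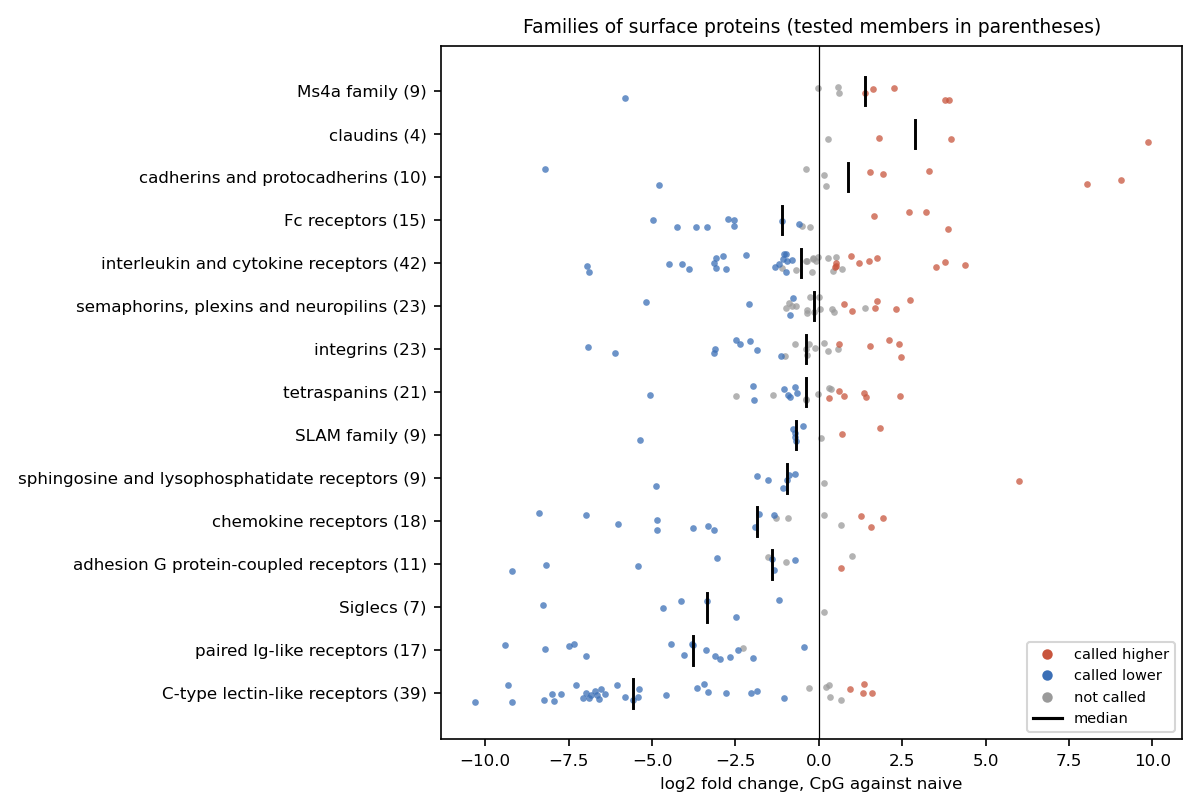
Log2 fold changes of CpG against naive (x axis) for tested members of 15 families of surface proteins (rows, tested members in parentheses), coloured as called higher (red), called lower (blue) or not called (grey), with a black bar at each median. Values for genes with 0 counts in one group are fitted and are no bound. The C-type lectin-like, paired Ig-like and Siglec rows lie almost wholly to the left, while the Ms4a family and the claudins have medians to the right of 0.

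Inside the cell, several families had more members higher than lower. Kinesins had 17 of 34 higher and 1 lower (median 0.50). Kif11, the motor that pushes spindle poles apart, rose from 17.4, 15 and 14.7 CPM to 86.4, 185 and 154 CPM (3.17 ± 0.26). Replication-type histones had 3 of 17 tested genes higher (0 without naive replicate 1) and 5 lower. Their summed levels were 76.4 ± 6.76 CPM in naive cells and 52.4 ± 31.9 CPM with CpG (SD, n = 3 each). By replicate the sums overlapped, at 68.6, 79.9 and 80.7 CPM against 88.7, 28.9 and 39.6 CPM. The libraries held polyadenylated RNA, so histone transcripts without a poly(A) tail would be missed, and these counts do not measure histone expression. Translation initiation factors had 26 of 54 higher (17 without naive replicate 1) and 3 lower (median 0.34), with small shifts: Eif1a, which helps the ribosome scan for the start codon, rose by 1.32 ± 0.13. Eif4ebp1, the repressor of cap binding, had the largest rise of that family, from 17.9, 17.6 and 17.4 CPM to 60.2, 41.5 and 102 CPM (1.94 ± 0.32). Chaperonin (CCT) subunits had 6 of 7 higher, but only 1 without naive replicate 1, 3 without naive replicate 2, 3 without naive replicate 3 and 1 without CpG replicate 2. Lgals1, galectin 1, rose from 23.9, 17.1 and 19.1 CPM to 188, 165 and 114 CPM (2.96 ± 0.20). Glutathione transferases had 8 of 16 higher, becoming 4 without naive replicate 2 and 4 without naive replicate 3, and 1 lower. Gstt2, a theta-class transferase, rose from 25.2, 17.4 and 17.1 CPM to 55.4, 74.0 and 38.2 CPM (1.49 ± 0.24).

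Regulators of transcription and of innate signalling were more often lower. Genes named Zfp, most of them C2H2 zinc finger factors, had 94 of 311 lower and 37 higher, the 94 becoming 55, 55 and 60 without naive replicate 2, naive replicate 3 and CpG replicate 2. Zfp36l2, which encodes an RNA-binding protein that promotes mRNA decay and not a C2H2 factor, had the steepest fall among those eligible by level, from 305, 411 and 651 CPM to 53.3, 67.1 and 65.1 CPM (-2.88 ± 0.25). Zfp831 fell from 168, 162 and 143 CPM to 42.2, 32.3 and 32.4 CPM (-2.15 ± 0.14). Lysine demethylases had 6 of 17 lower (2 without naive replicate 2 and 3 without CpG replicate 2) and 0 higher, and Kdm7a fell from 212, 218 and 233 CPM to 79.8, 76.6 and 73.0 CPM (-1.53 ± 0.10). Interferon regulatory factors had 5 of 9 lower and 1 higher. Irf1 fell from 231, 229 and 237 CPM to 74.6, 89.7 and 72.8 CPM (-1.56 ± 0.12), and Irf4, a factor of plasma cell differentiation, from 296, 326 and 278 CPM to 73.4, 159 and 141 CPM (-1.27 ± 0.27). Irf8 was the higher one, from 690, 707 and 733 CPM to 1506, 1296 and 1411 CPM (0.98 ± 0.12). TRIM proteins, many of them ubiquitin ligases of antiviral defence, had 19 of 43 lower and 7 higher, the 7 becoming 3 or 4 without any one of the naive replicates, CpG replicate 2 or CpG replicate 3. Trim7 fell most, from 263, 206 and 215 CPM to 15.2, 16.1 and 23.5 CPM (-3.64 ± 0.20). The groups of Irf1, Irf8, Kdm7a and Trim7 did not overlap.

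Among long non-coding genes more were lower than higher. Of 561 tested, 48 were higher (8.56%) and 115 lower (20.5%), against 23.5% and 21.9% of all tested genes, with a median of -0.47. Of the 226 with no exon overlap with another gene, 24 were higher and 56 lower. Gm12678, without such an overlap, rose from 0.313, 1.10 and 0.731 CPM to 86.2, 78.7 and 94.8 CPM (6.90 ± 0.29, adjusted p = 5.44e-07). Gm12576 had 2 counts over the naive group and 2252 with CpG, at 49.5, 30.9 and 49.5 CPM, a ratio of 1250 (95% exact interval 346 to 10326). 1700028I16Rik rose from 0.573, 0.501 and 0.574 CPM to 10.8, 6.57 and 8.24 CPM (3.94 ± 0.32). In these 3 genes every CpG library was far above the naive ones. 6530402F18Rik rose by 2.72 ± 0.20 but shares exon bases with Ntng2 on the same strand, so its reads may be those of Ntng2.

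Some of the falling non-coding genes share exon bases with another gene. Gm16170, on the strand opposite Trim7, went from 49.4, 27.6 and 29.5 CPM to 1.68, 1.87 and 3.00 CPM (-4.01 ± 0.32), beside -3.64 for Trim7. Gm15675 went from 186, 134 and 153 CPM to 18.6, 8.01 and 5.51 CPM (-3.89 ± 0.38; -4.54 without CpG replicate 1) and Gm15674 from 50, 45 and 48.3 CPM to 3.87, 2.46 and 1.96 CPM (-4.12 ± 0.24). The exons of Gm15674 and Gm15675 overlap each other on opposite strands, and those of Gm15674 also overlap Cd55b. Counting ignored strand, so reads on the bases that such a pair shares could not be assigned by strand. Gm15408 and E230001N04Rik have no such overlap and fell from 15.2, 14.6 and 11.7 CPM to 2.06, 1.12 and 0.928 CPM (-3.34 ± 0.32) and from 6.88, 7.61 and 6.58 CPM to 0.903, 0.962 and 0.764 CPM (-2.99 ± 0.29). Ftx, which lies in the X inactivation centre, fell from 51.6, 52.1 and 53.5 CPM to 30.5, 21.3 and 24.8 CPM (-1.04 ± 0.16).

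Host transcripts of small nucleolar RNAs had 3 of 9 higher and 1 lower. Gas5, a growth-arrest host transcript, rose from 277, 277 and 302 CPM to 461, 386 and 460 CPM (0.61 ± 0.11), and Zfas1 by 0.86 ± 0.17. Snhg20 fell by 1.00 on the log2 scale (SE 0.23). Exons of such genes also hold small RNAs. HTSeq set apart reads that fit several genes as ambiguous, 1.29% to 2.11% of reads in the compared libraries. Reads set apart in this way counted for no gene. How far this covered the reads on those shared bases is not stated. Malat1, an abundant nuclear RNA, was at 3525, 1072 and 1107 CPM in naive cells and 1809, 309 and 468 CPM with CpG, highest in replicate 1 of each group, and was not called (-1.14 ± 0.67, adjusted p = 0.189). In the libraries of the commoner prefix, which include 1 given LPS, PMA and ionomycin, its change was -1.49. A fit of all libraries that included the prefix gave -1.29 (adjusted p = 0.00374). Without naive replicate 1 it was -0.35 (adjusted p = 0.687), and without CpG replicate 1 -2.29 (adjusted p = 0.0122). Long non-coding genes together took 0.957%, 0.631% and 0.638% of counts in naive libraries and 0.793%, 0.520% and 0.550% with CpG, so here too replicate 1 was highest in each group. Of 548 pseudogenes 54 were higher (9.85%) and 27 lower (4.93%), both below the 23.5% and 21.9% of all tested genes. Their counts may include reads of their parent genes.

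Marker genes of several other spleen cells were present in the naive libraries and lower with CpG. Of 18 red pulp macrophage markers, 17 were called lower and none higher. Their summed level was 2543, 640 and 299 CPM in naive replicates 1 to 3 and 68.2, 49.6 and 91.4 CPM with CpG, so that the groups did not overlap and naive replicate 1 was highest by far. None of the 18 was at 0 in the CpG libraries as a group. Csf1r, the receptor that keeps macrophages alive, went from 304, 82.0 and 34.5 CPM to 0.967, 1.07 and 1.47 CPM (-6.89 ± 0.84; -5.63 without naive replicate 1). Spic, the factor that defines red pulp macrophages, went from 64.2, 15.4 and 7.52 CPM to 0.580, 0.267 and 0.764 CPM (-5.75 ± 0.85; -4.42 without naive replicate 1). Cd5l was the exception, at 70.6, 16.2 and 6.68 CPM against 18.4, 13.3 and 22 CPM with overlapping groups (-0.80 ± 0.66, adjusted p = 0.351; 0.63 without naive replicate 1, adjusted p = 0.205).

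Natural killer markers fell in all 13 tested genes, with sums of 131, 31.1 and 124 CPM in naive libraries and 4.13, 5.29 and 5.08 CPM with CpG. Of the 13, 5 had no count in the CpG libraries: Gzma, Klrk1, Ncr1, Klra4 and Gzmb. Klre1, Nkg7, Klra8, Klrb1c and Eomes had 1 to 3 counts over the CpG group. Such genes could be tested only through other libraries and had to differ, so the count of 13 is a description only. Here naive replicate 2 was lowest and replicates 1 and 3 alike, which is another order than in the macrophage list. T cell markers had 13 of 16 lower and none higher (5 lower where a mean of 1 CPM was required), with sums of 48.0, 37.9 and 79.5 CPM against 14.4, 22.7 and 15.8 CPM. Naive replicate 3 was the highest in T cell markers, and Cd8a had 75 counts over the naive group and 0 with CpG, at least 22.5-fold lower. Trbc1, a T cell receptor constant gene, had 101 counts and 1 count, a ratio of 91.0 (95% exact interval 16 to 3629), and has a near copy in Trbc2, so its share of such reads is uncertain.

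Dendritic cell markers had 9 of 13 lower and 2 higher, and their sums overlapped, at 292, 113 and 104 CPM against 106, 131 and 120 CPM. The higher ones were Bst2 and the chemokine receptor gene Ccr9, whose exons overlap those of Slc6a20a on the opposite strand (1.93 ± 0.34). Bst2, also an interferon-induced gene, was at 43.7, 30.6 and 33.1 CPM against 67.5, 64.8 and 70.1 CPM (0.91 ± 0.14). It was the largest part of the dendritic sum in each CpG library. Siglech of plasmacytoid dendritic cells had 463 counts over the naive group and 1 with CpG, a ratio of 417 (95% exact interval 74.5 to 16512). Monocyte markers had 11 of 12 lower and 1 higher. The 11 became 6 without naive replicate 1, and 7 in the libraries of the commoner prefix or in a fit of the CpG and naive libraries alone. The higher one, Itgam (CD11b), rose from 13.5, 4.71 and 6.73 CPM to 43.3, 41.3 and 48.2 CPM (2.41 ± 0.35), and made up most of the monocyte sum with CpG of 51.6, 47.0 and 65.2 CPM. Naive sums of that list were 278, 48.1 and 66.9 CPM. Eosinophil and basophil markers had 5 of 7 lower (3 where a mean of 1 CPM was required), erythroid markers 5 of 7 (3 without naive replicate 1, 3 without naive replicate 3, 3 in a fit of the CpG and naive libraries alone and 2 where a mean of 1 CPM was required), platelet markers 2 of 4 and stromal markers 1 of 5, with none higher in any of these lists. Of 4 tested neutrophil markers, from 12 listed, 2 were lower and 1 higher. The platelet, stromal, eosinophil and erythroid counts also come from lists of 10 to 14 genes of which 4 to 7 could be tested. How far fewer such cells account for the falls was not tested.

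**Figure D4:**
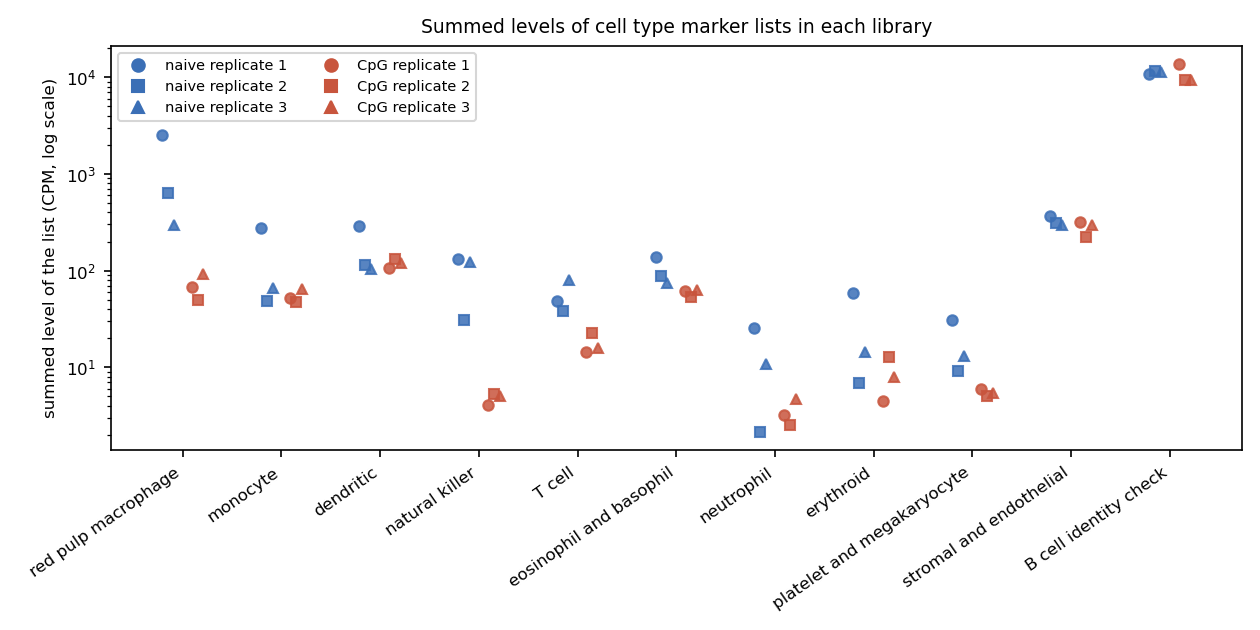
Summed levels of 11 marker lists (x axis) in each library, in CPM on a log scale (y axis), blue for naive and red for CpG, with a symbol for each replicate. The red pulp macrophage list runs from 2543 CPM in naive replicate 1 to 49.6 CPM in CpG replicate 2, the natural killer list is 31.1 CPM or more in naive libraries and 5.29 CPM or less with CpG, and the B cell identity list stays between 9317 and 13712 CPM.

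Falls that followed naive replicate 1 were a small share of all falls and a larger share of the steep ones. Of the 3061 genes called lower, 181 had a level in naive replicate 1 at least 3 times the higher of naive replicates 2 and 3, 265 had a ratio of 1.5 to 3, and 2615 had a smaller one. The medians of their log2 fold changes were -4.32, -2.77 and -0.85. Of the 491 genes that fell at least 8-fold 138 had a ratio of at least 3, and of the 188 that fell at least 32-fold 71 did. Of all 13964 tested genes 356 had such a ratio, and of the 3286 called higher 29 did. The level in naive replicate 1 enters both the ratio and the fold change, so these shares and medians are in part built in. When naive replicate 1 was left out, 154 of the 181 could still be tested and 128 kept their call, with a median of -3.12. The same held for 2256 of the 2615 genes with the smallest ratios. Hmox1, haem oxygenase 1, which degrades haem, had one of the highest ratios, at 290, 52.0 and 25.8 CPM against 15.5, 7.80 and 17.9 CPM (-3.16 ± 0.79; -1.52 without naive replicate 1). Tgfbi went from 40.7, 7.86 and 6.94 CPM to 0.322, 0.588 and 1.09 CPM (-4.76 ± 0.78; -3.45 without naive replicate 1), and C1qa, a chain of complement C1q, from 130, 27.6 and 12.0 CPM to 1.03, 0.801 and 1.91 CPM (-5.49 ± 0.90; -3.99 without naive replicate 1). In each of these the second naive library was also above or near the third, and all CpG libraries were below all naive ones.

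**Figure D5:**
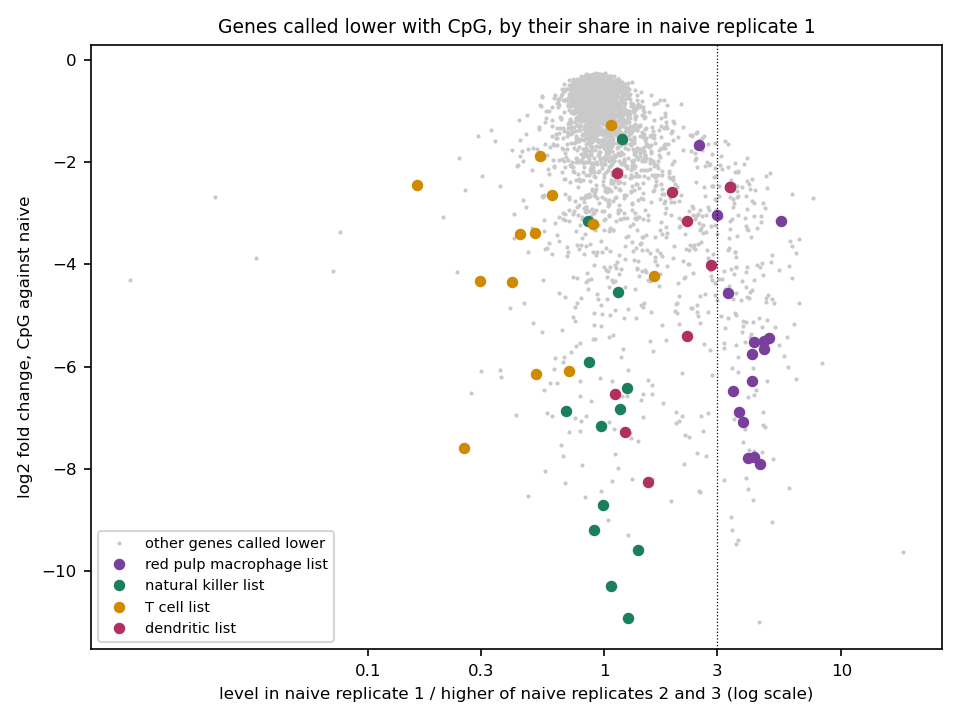
Each of the 3061 genes called lower, by its level in naive replicate 1 divided by the higher of naive replicates 2 and 3 (x axis, log scale) and its log2 fold change of CpG against naive (y axis), with 4 marker lists in colour and a dotted line at a ratio of 3. Most red pulp macrophage markers lie at or right of the line, natural killer markers lie near a ratio of 1, T cell markers lie mostly below 1, and most other genes form the cloud near 1 with small changes.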

How the data were processed

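Polyadenylated RNA of 8 libraries was sequenced after strand-specific preparation, per the labels' protocols. The authors deposited whole-number read counts per Ensembl gene. The submitters' processing notes name STAR, HTSeq, edgeR and the build mm9, with no versions; per the file names, counting ignored strand. The p-values below are from edgeR 4.0.16 (R 4.3.3): quasi-likelihood test over all 8 libraries, contrast of CpG against naive, filterByExpr, TMM scaling and Benjamini-Hochberg adjustment at 0.05; fold changes use the fitted coefficients and SEs are derived from the F statistic. The 5 summary lines of each file were left out. Symbols and exon overlaps came from GENCODE M21 (32860 identifiers matched). Folds for genes at 0 in a group use 3 counts over the group as the floor; ratios for 1 to 3 counts have exact 95% intervals that cover counting error only. Two-sided permutation of 3 against 3 libraries cannot go below 0.10, so single genes rest on the fit over all genes. The fit was tested on simulated counts.

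The members and lists were chosen with earlier results of these data known, so no list is independent evidence and no list was tested. Named genes were called, averaged 8 CPM or more and had no overlap between the groups: the 10 largest rises and falls in CPM, the 15 steepest each way, up to 4 members of a list by p, the highest and lowest member of a family, the 8 highest and 8 lowest non-coding genes (2 CPM or more), and the 10 lower genes with the largest ratio of naive replicate 1; from these the text takes the ones that show a list. Outside this rule, and chosen after their values were seen, are Abca1, Abcg1, Ccr6, Ccr7, Ccr9, Cd22, Cd37, Cd53, Cd55, Cd5l, Cd8a, Cdh1, Cdh17, Cs, Cxcr5, Eif1a, Fcgr2b, Fcgrt, Gzma, Gzmb, Il4ra, Il6ra, Il7r, Il9r, Irf4, Itga4, Itgb7, Kcna3, Kcnk5, Klra4, Klrk1, Kmo, Lpar2, Lpar4, Ly6a, Malat1, Marcks, Ms4a1, Ms4a6c, Ncr1, Pglyrp1, Plaur, Ptgs1, Pycr1, S1pr4, Siglech, Slc16a1, Slc31a2, Slc36a1, Slc3a2, Slc43a2, Slc43a3, Slc7a7, Sorl1, Spic, Tlr9, Trbc1, Treml2, Xkrx and Zfp831. Some items are not reported here.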

Additional observations from a re-analysis of the deposited data

How the results depend on the processing

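The count of called genes, 6347, and its parts of 3286 higher and 3061 lower stayed within 1.5 times under every alternative run: DESeq2 1.42.0 (6568 called), RLE scaling (6318), library size alone (6322), no filter on low counts (6381), a mean of 1 CPM or more (5805), only the CpG and naive libraries in the fit (5914), a fit with the library prefix included (7093), the 5 libraries of the commoner prefix (6808) and immunoglobulin genes left out (6344). Leaving out 1 library at a time gave 4888 to 6738 called genes, 2539 to 3468 higher and 2349 to 3270 lower. The replicate number as a block gave 6665 called genes, 3428 higher and 3237 lower. Deviations of same-numbered libraries correlated by 0.160, 0.104 and 0.0036, so the numbers were not taken to pair libraries. Higher genes made up 48.2% to 53.8% of calls.

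Of 3040 counts of lists and families recomputed under an alternative, 301 moved by more than 1.5 times. Of these, 73 moved from a reported count of 5 or more, and for the lists described they are given beside the counts. Moves of counts below 5 are given only for the replication-type histones and the B cell identity genes. For 312 genes, of 4982 values under an alternative 4882 kept direction and call, 96 lost the call in 27 genes, 4 were called only there (Malat1), and 0 reversed. DESeq2 and the replicate block lost 1 and 0 calls of these genes. Depth limits the rarest transcripts: 84 tested genes had 0 counts in one group and 209 had 1 to 3.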
